A study of Mus musculus with 34 samples.

Results

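The genes described here are 35 mouse genes of heart muscle, followed through 34 samples of lung RNA. Members were found by matching the RefSeq accession of each array probe to the listed genes, and where several probes matched, the probe with the highest mean lung signal was used. Of the 35 genes, 34 were matched and Smpx was not, and all 34 were among the 29316 genes and unnamed accessions (units) that were tested.

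All mice were female C57BL/6, 5 to 7 weeks old, and lungs were collected at day 28. Exposed mice had received 18 or 54 µg of carbon nanotubes through the trachea, instilled once in 40 µl. The codes of the 3 nanotube materials are NRCWE-043, NRCWE-044, NRCWE-045. The groups held 5 controls (0 µg; what the controls received is not stated in the labels), 5 arrays each of 18 and 54 µg NRCWE-043, 6 of 18 µg and 5 of 54 µg NRCWE-044, and 3 of 18 µg and 5 of 54 µg NRCWE-045. Each array compared lung RNA (Cy5 dye) with a universal reference RNA from 11 mouse cell lines (Cy3 dye). Each value below is a log2 ratio of lung over reference, so that 1 unit is a doubling and 0 means equal signals. Where both channels lay near background, a ratio near 0 stands for 2 dim signals and does not show equal expression. The reference was well above background on only 1 of 34 arrays for Pln and 2 for Ryr2, Ckmt2 and Myoz2. It was so on 4 for Csrp3, 5 for Tbx20 and 10 for Sln, among others. Random pieces of the frozen lung gave the RNA, with a labelled 5 per group, and the heart was removed in the same session. The title of control replicate 3 names NRCWE-043 at 0 µg, and the array was kept with the controls by its treatment label.

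Heart muscle cells contract through sarcomeres, in which myosin thick filaments pull on actin thin filaments under the control of calcium and the troponins. Atrial and ventricular muscle use different versions of several of these proteins, and atrial cells also store natriuretic peptide. In mice the pulmonary veins carry a sleeve of cardiac muscle that continues from the left atrium into the lung.

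Across the series, 52.2 to 69.4% of probes were well above background in lung RNA and 46.2 to 66.5% in reference RNA. No probe was saturated, and the correlation over all non-control probes between same-group arrays was 0.908 to 0.970. The 8 listed markers of lung epithelium, vessel and macrophage, Sftpc among them, were well above background on all 34 arrays, so the labelled tissue was borne out. The arrays came from 6 slides, each with its own scan day, and after allowing for group 48.3% of all units differed among slides at an adjusted p of at most 0.05 (limma F test). Each sample is 1 array, so p-values measure the spread between these samples.

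The cardiac genes were among the most variable transcripts in these lungs, and most of them varied together. The standard deviation (SD) over the 34 arrays exceeded the 99th percentile of all units (0.65) for 22 of the 34 genes, where 1.00% of all units do so by construction. Of the 34 genes 19 had an SD above 1, against 104 of all 29316 units (0.355%), and the median SD of all units was 0.18. Since the genes were chosen with earlier results of these data known, these counts describe the list and are not a test of it. A cardiac score, the mean over the 34 genes of the log2 ratio minus the mean of that gene over all arrays, ran from -0.82 to 2.58. In RNA from whole tissue, fewer heart muscle cells in the sampled piece and less RNA per cell cannot be told apart. A low score may be either, and how much vein muscle each random piece of lung held was not tested.

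**Figure D1:**
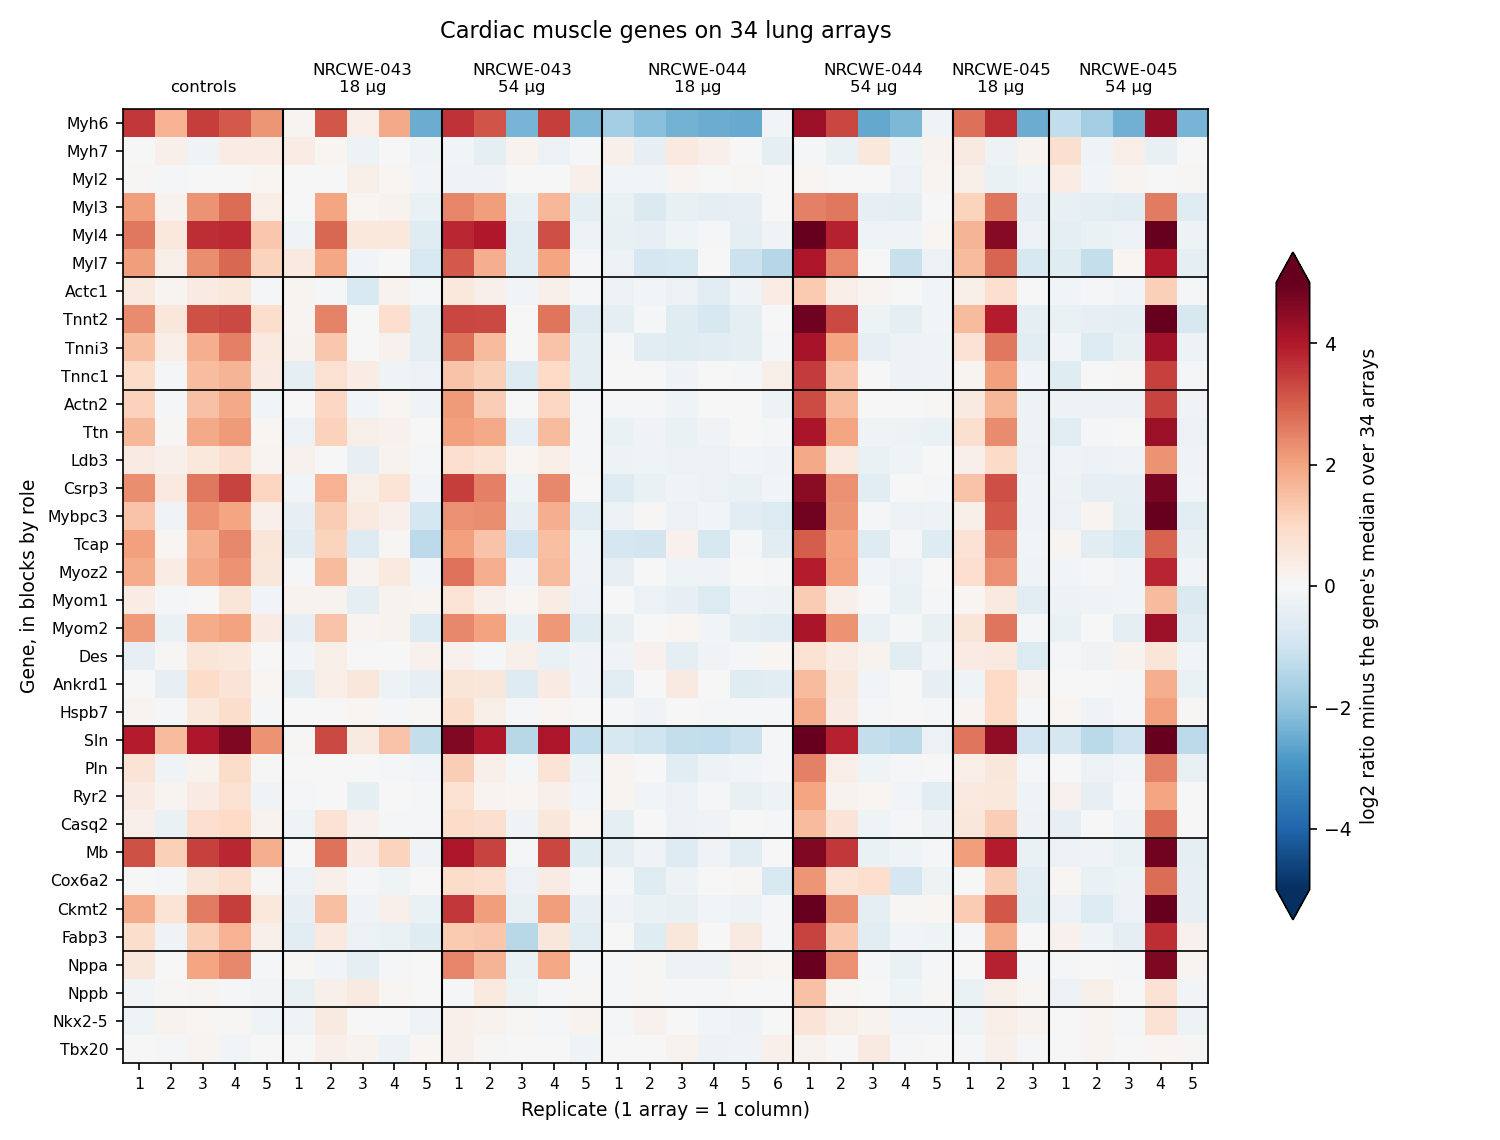
Log2 ratio of lung over reference RNA for each of the 34 measured cardiac genes (rows, by role) on each of the 34 arrays (columns, by group), minus the median of the gene over arrays, as a colour from blue (below) to red (above). Most rows are red on the same arrays, including 1 array of 54 µg NRCWE-044 and 1 of 54 µg NRCWE-045, while the rows of Myh7, Myl2 and Tbx20 differ little.

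The thick filament genes include Myh6, which had the largest SD of the list, 2.64. Myh6 encodes the alpha myosin heavy chain, the main motor of the adult mouse atrium and ventricle. The log2 ratio of Myh6 was 5.97, 4.15, 5.89, 5.48 and 4.62 on the 5 control arrays and from -0.09 to 2.27, with a median of 0.21, on the 6 arrays of 18 µg NRCWE-044. Myh6 read 2.57, 5.53, 2.74, 4.31 and -0.07 with 18 µg NRCWE-043, 6.04, 5.57, 0.12, 5.88 and 0.18 with 54 µg NRCWE-043 and 6.71, 5.78, -0.15, 0.18 and 2.24 with 54 µg NRCWE-044. With NRCWE-045, Myh6 read 5.19, 6.10 and -0.07 at 18 µg and 1.18, 0.67, 0.01, 6.80 and 0.09 at 54 µg. Myh6 was thus high in all controls and low in all arrays of 18 µg NRCWE-044, whose ranges did not overlap, while each of the other groups held both high and low arrays. Its Cy5 intensity ran from 95 to 167782, and it was above background on 33 of 34 arrays. By level, 15 arrays had Myh6 over 4, 5 lay between 1 and 4, and 14 lay under 1. A log2 ratio over 4 was seen in 5 of 5 controls, 2 of 5 and 3 of 5 arrays of 18 and 54 µg NRCWE-043, 0 of 6 and 2 of 5 arrays of 18 and 54 µg NRCWE-044, and 2 of 3 and 1 of 5 arrays of 18 and 54 µg NRCWE-045. The second Myh6 probe was well above background on 17 arrays and correlated at 0.76 with the first and at 0.95 with the cardiac score.

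Myl4 and Myl7 encode the essential and regulatory myosin light chains typical of atrial muscle. Values of Myl4 were 2.88, 0.80, 3.93, 3.98 and 1.61 on the 5 control arrays and from -0.20 to 0.16, with a median of -0.05, on the 6 arrays of 18 µg NRCWE-044. Myl4 read 0.05, 3.12, 0.77, 0.79 and -0.33 with 18 µg NRCWE-043, 4.02, 4.24, -0.30, 3.48 and -0.05 with 54 µg NRCWE-043 and 5.84, 4.11, 0.05, 0.09 and 0.36 with 54 µg NRCWE-044. With NRCWE-045, Myl4 read 1.97, 4.80 and -0.03 at 18 µg and -0.23, -0.08, -0.03, 6.55 and 0.00 at 54 µg. Again every array of 18 µg NRCWE-044 lay below every control. Myl4 exceeded 1 on 13 arrays, all with Myh6 of at least 4.62, and it correlated with Myh6 at 0.90. The lowest Myl4 in the controls, 0.80 in replicate 2, belonged to the control with the lowest Myh6.

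Myl7 gave a log2 ratio of 3.89, 2.10, 4.13, 4.68 and 2.92 on the 5 control arrays and from 0.38 to 1.77, with a median of 1.01, on the 6 arrays of 18 µg NRCWE-044. Myl7 read 2.31, 3.75, 1.68, 1.79 and 1.03 with 18 µg NRCWE-043, 4.86, 3.61, 1.29, 3.78 and 1.73 with 54 µg NRCWE-043 and 5.83, 4.26, 1.82, 0.68 and 1.51 with 54 µg NRCWE-044. With NRCWE-045, Myl7 read 3.40, 4.73 and 0.99 at 18 µg and 1.18, 0.60, 1.90, 5.83 and 1.37 at 54 µg. The controls lay above all arrays of 18 µg NRCWE-044 here too, and in the other groups Myl7 exceeded 3 on arrays with Myh6 over 5 and on no others. Myl7 and Myh6 correlated at 0.89. Myl3, the essential light chain shared by ventricle and slow skeletal muscle, ranged from -0.12 to 3.38 and also had its NRCWE-044 18 µg arrays below all controls.

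Unlike Myl3, the other genes listed here as ventricular, Myl2 and Myh7, did not show this pattern. Myl2, the regulatory light chain typical of the ventricle, was well above background on 13 of 34 arrays, with Cy5 intensities of 82 to 178. Myl2 gave log2 ratios of 0.02, -0.12, -0.08, -0.06 and 0.06 on the 5 control arrays and from -0.19 to 0.09, with a median of -0.03, on the 6 arrays of 18 µg NRCWE-044. Myl2 read -0.05, -0.08, 0.26, 0.04 and -0.19 with 18 µg NRCWE-043, -0.23, -0.22, -0.08, -0.03 and 0.21 with 54 µg NRCWE-043 and 0.05, -0.03, -0.06, -0.35 and 0.09 with 54 µg NRCWE-044. With NRCWE-045, Myl2 read 0.25, -0.37 and -0.24 at 18 µg and 0.33, -0.20, 0.07, -0.04 and -0.01 at 54 µg. No group stood apart, and the correlation of Myl2 with the mean of the other cardiac genes was -0.12. Myh7 encodes the beta myosin heavy chain, which slow skeletal muscle and the embryonic heart use. On the log2 scale Myh7 was at 4.04, 4.28, 3.88, 4.40 and 4.42 on the 5 control arrays and from 3.58 to 4.51, with a median of 4.16, on the 6 arrays of 18 µg NRCWE-044. Myh7 read 4.40, 4.14, 3.79, 4.05 and 3.82 with 18 µg NRCWE-043, 3.91, 3.54, 4.21, 3.74 and 3.95 with 54 µg NRCWE-043 and 3.93, 3.69, 4.57, 3.83 and 4.22 with 54 µg NRCWE-044. With NRCWE-045, Myh7 read 4.50, 3.77 and 4.22 at 18 µg and 4.84, 3.84, 4.36, 3.65 and 4.00 at 54 µg. All groups overlapped for Myh7, and its correlation was -0.29 with Myh6 and -0.35 with the mean of the other members. Myh7 was the only one of the 34 genes called for a difference among slides (limma F test, adjusted p = 0.00661), against 48.3% of all units. Slide membership accounted for 0.47 of its variance, where the median over all units was 0.345. Leaving out NRCWE-044 54 µg replicate 1 or NRCWE-045 54 µg replicate 4 gave 3 members called among slides. Leaving out NRCWE-044 54 µg replicate 4 or NRCWE-045 54 µg replicate 2 gave 2. The genes listed as ventricular, Myl2, Myl3 and Myh7, had a median pairwise correlation of -0.145 over the 3 pairs, with Myl2 near background. For the atrial genes Myl4, Myl7, Nppa and Sln the median was 0.928 over 6 pairs. The mean score of the 3 ventricular genes nevertheless correlated at 0.89 with the cardiac score, which contains them (Spearman's rho 0.92, and r 0.92 without the 2 arrays farthest on the cardiac axis). It ran from -0.63 to -0.14 with 18 µg NRCWE-044 and from -0.10 to 0.83 in the controls, without overlap, and among its genes Myl3 correlated at 0.94 with the mean of the other members.

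In the thin filament, the troponins followed Myh6 and the cardiac actin followed it over a narrow range. Tnnt2, the cardiac troponin T that ties the troponin complex to tropomyosin, had a correlation of 0.92 with Myh6. Its log2 ratio was 1.59, -0.19, 2.43, 2.51 and 0.12 on the 5 control arrays and from -1.58 to -0.76, with a median of -1.26, on the 6 arrays of 18 µg NRCWE-044. Tnnt2 read -0.64, 1.71, -0.78, 0.06 and -1.22 with 18 µg NRCWE-043, 2.56, 2.53, -0.79, 1.89 and -1.41 with 54 µg NRCWE-043 and 4.09, 2.53, -1.03, -1.25 and -0.90 with 54 µg NRCWE-044. With NRCWE-045, Tnnt2 read 0.83, 3.16 and -1.20 at 18 µg and -1.09, -1.16, -1.22, 4.48 and -1.59 at 54 µg. All Tnnt2 values with 18 µg NRCWE-044 lay below the lowest control, and Tnnt2 exceeded 1 on 11 arrays, all with Myh6 of at least 5.48. Tnni3, the cardiac inhibitory troponin, varied with an SD of 1.36 log2 units. Measured log2 ratios of Tnni3 were 2.31, 1.1, 2.60, 3.31 and 1.27 on the 5 control arrays and from 0.19 to 0.71, with a median of 0.31, on the 6 arrays of 18 µg NRCWE-044. Tnni3 read 0.95, 2.15, 0.83, 1.02 and 0.30 with 18 µg NRCWE-043, 3.53, 2.36, 0.75, 2.23 and 0.36 with 54 µg NRCWE-043 and 4.90, 2.77, 0.40, 0.54 and 0.59 with 54 µg NRCWE-044. With NRCWE-045, Tnni3 read 1.52, 3.42 and 0.28 at 18 µg and 0.65, 0.11, 0.42, 5.01 and 0.52 at 54 µg. For Tnni3 too, 18 µg NRCWE-044 and the controls did not overlap. Tnnc1, the calcium sensor of cardiac and slow muscle, ranged from -1.04 to 3.11 with overlapping groups.

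Actc1 encodes cardiac alpha actin. For Actc1, the log2 ratio was 2.49, 2.12, 2.39, 2.52 and 1.93 on the 5 control arrays and from 1.48 to 2.36, with a median of 1.76, on the 6 arrays of 18 µg NRCWE-044. Actc1 read 2.12, 1.89, 1.23, 2.18 and 1.93 with 18 µg NRCWE-043, 2.52, 2.26, 1.87, 2.24 and 1.91 with 54 µg NRCWE-043 and 3.28, 2.33, 2.11, 2.01 and 1.84 with 54 µg NRCWE-044. With NRCWE-045, Actc1 read 2.28, 2.81 and 1.97 at 18 µg and 1.84, 1.90, 1.85, 3.19 and 1.88 at 54 µg. The controls overlapped 18 µg NRCWE-044 for Actc1, whose highest array there, replicate 6, was also the highest of its group for Myh6. The SD of Actc1 over arrays was 0.43 and its correlation with Myh6 was 0.72.

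**Figure D2:**
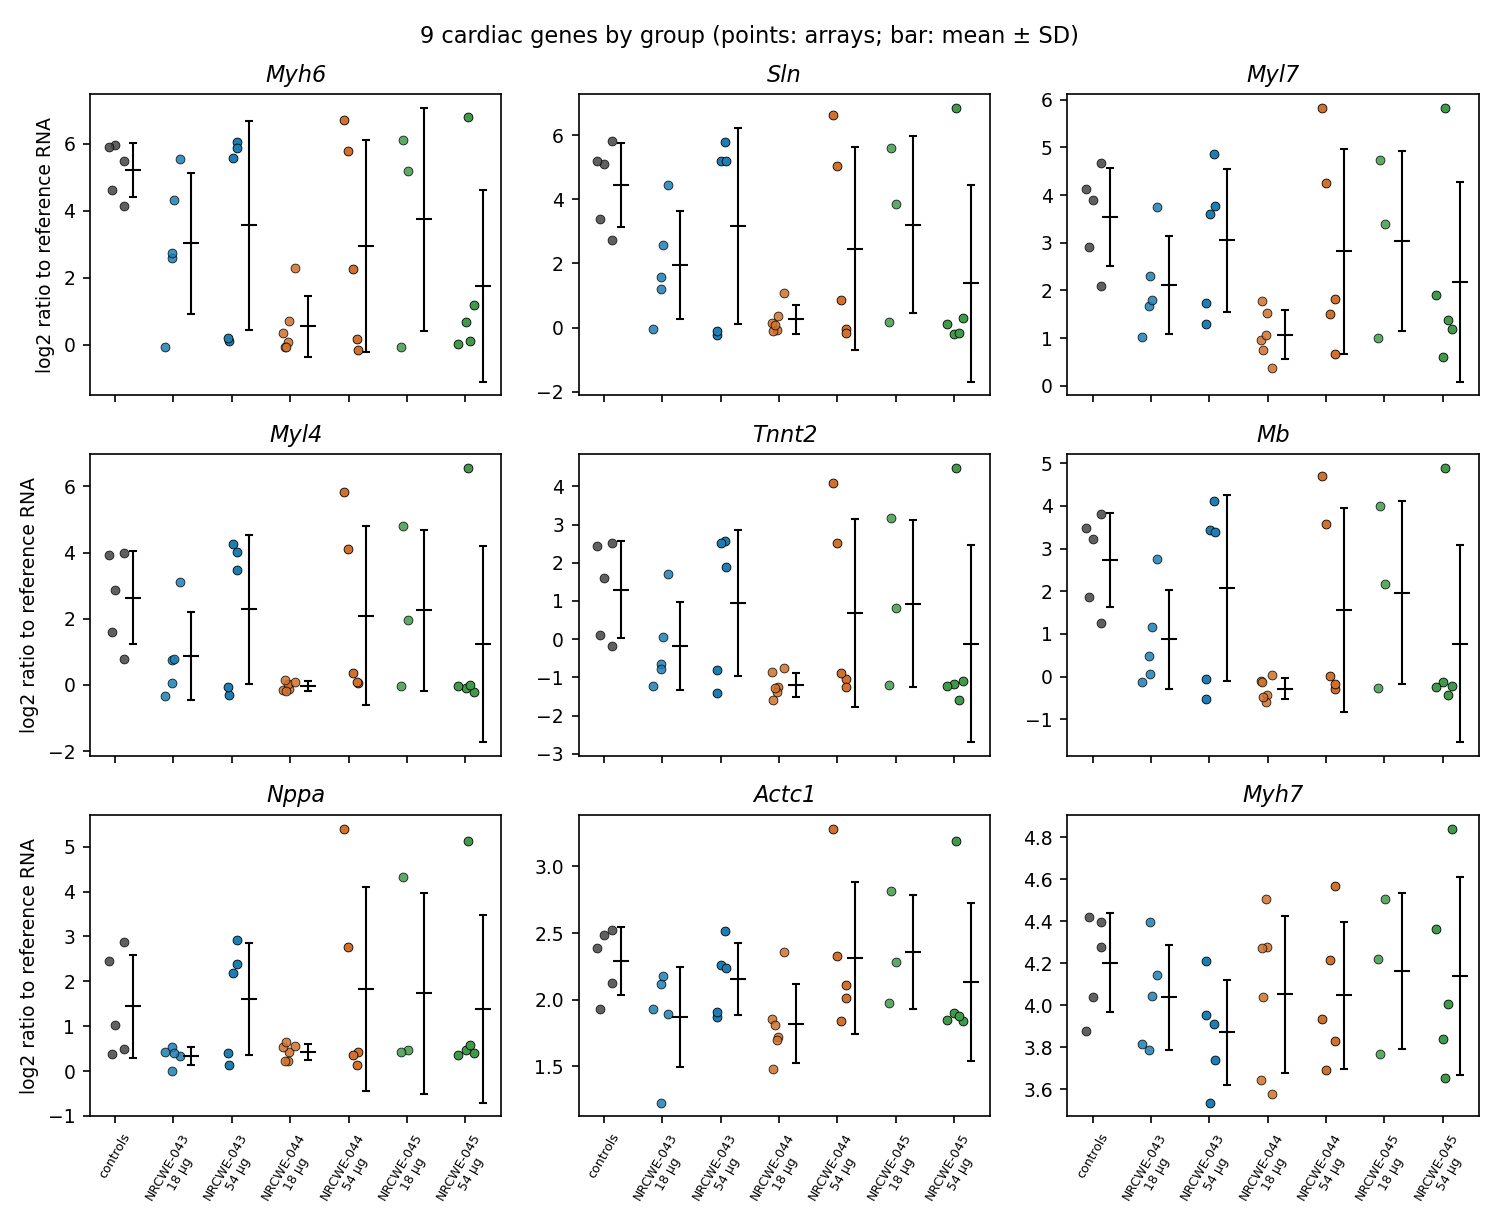
Log2 ratio of lung over reference RNA for selected cardiac genes by group. Each point is 1 array, the bars give mean ± SD, and each of the 9 panels has its own log2 axis; the control points of Myh6 all lie above 4, the NRCWE-044 18 µg points all lie below 2.3, and Myh7 shows no such separation.

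The 12 measured scaffold and stress proteins of the sarcomere had SDs from 0.34 for Des, the intermediate filament desmin, to 1.59 for Csrp3, a muscle LIM protein of the Z-disc. Tcap, which caps titin at the Z-disc, had the smallest unadjusted p of the list in one comparison with the controls and is given in full. Tcap stood at log2 ratios of 4.13, 2.19, 3.84, 4.48 and 2.68 on the 5 control arrays and from 1.15 to 2.29, with a median of 1.39, on the 6 arrays of 18 µg NRCWE-044. Tcap read 1.52, 3.18, 1.42, 2.13 and 0.77 with 18 µg NRCWE-043, 4.13, 3.48, 1.12, 3.56 and 1.87 with 54 µg NRCWE-043 and 5.12, 4.08, 1.41, 2.01 and 1.42 with 54 µg NRCWE-044. With NRCWE-045, Tcap read 2.80, 4.63 and 1.91 at 18 µg and 2.23, 1.52, 1.31, 5.03 and 1.70 at 54 µg. One NRCWE-044 18 µg array, replicate 3 at 2.29, exceeded the lowest Tcap control. Titin (Ttn), the spring that spans the length of the sarcomere from Z-disc to M-band, ranged from -0.31 to 4.56, and of its 3 other probes 2 correlated with the one used at 0.96 and 0.89, while the dimmest gave 0.29. Myosin-binding protein C (Mybpc3) ranged from -3.95 to 2.17, the Z-disc protein Myoz2 from -0.36 to 4.01, and the Z-disc cross-linker alpha-actinin 2 (Actn2) from -0.24 to 3.43. The M-band proteins Myom1 and Myom2 spanned from 0.33 to 2.62 and from -1.60 to 3.32. Ankrd1, a stretch-responsive repeat protein, had an SD of 0.60, the chaperone Hspb7 one of 0.53 and the Z-disc protein Ldb3 one of 0.61. All 12 correlated with the mean of the other members, at 0.63 for Des and at 0.85 to 0.99 for the rest. Without the 2 arrays of highest cardiac score, the correlation of Des was 0.49.

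Among the calcium handling genes the widest range belonged to Sln, which encodes sarcolipin, an inhibitor of the calcium pump of the sarcoplasmic reticulum that is abundant in atrium. Log2 ratios of Sln were 5.09, 2.73, 5.20, 5.83 and 3.39 on the 5 control arrays and from -0.09 to 1.09, with a median of 0.12, on the 6 arrays of 18 µg NRCWE-044. Sln read 1.20, 4.44, 1.58, 2.59 and -0.05 with 18 µg NRCWE-043, 5.78, 5.20, -0.23, 5.18 and -0.10 with 54 µg NRCWE-043 and 6.62, 5.05, -0.05, -0.16 and 0.85 with 54 µg NRCWE-044. With NRCWE-045, Sln read 3.84, 5.59 and 0.19 at 18 µg and 0.30, -0.19, 0.12, 6.85 and -0.18 at 54 µg. All 6 arrays of 18 µg NRCWE-044 lay below all controls, and Sln correlated with Myh6 at 0.98. Its Cy5 intensity spanned 70 to 41536, and it was well above background on 21 arrays.

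Pln (phospholamban), the related pump inhibitor of the ventricle and atrium, was dim. Its log2 ratio was 0.72, -0.14, 0.22, 0.98 and 0.10 on the 5 control arrays and from -0.48 to 0.18, with a median of -0.04, on the 6 arrays of 18 µg NRCWE-044. Pln read 0.06, 0.08, 0.04, -0.01 and -0.11 with 18 µg NRCWE-043, 1.28, 0.28, -0.00, 0.72 and -0.20 with 54 µg NRCWE-043 and 2.54, 0.36, -0.16, -0.08 and 0.08 with 54 µg NRCWE-044. With NRCWE-045, Pln read 0.38, 0.61 and -0.05 at 18 µg and 0.02, -0.23, -0.08, 2.56 and -0.32 at 54 µg. Pln exceeded 1 on 3 arrays, all with Myh6 of at least 6.04, and it was well above background on 12 of 34 arrays. Ryr2 encodes the calcium release channel of the reticulum. Values of Ryr2 were 0.70, 0.45, 0.73, 1.08 and 0.11 on the 5 control arrays and from -0.05 to 0.43, with a median of 0.11, on the 6 arrays of 18 µg NRCWE-044. Ryr2 read 0.25, 0.28, -0.17, 0.31 and 0.22 with 18 µg NRCWE-043, 1.07, 0.45, 0.42, 0.58 and 0.17 with 54 µg NRCWE-043 and 2.27, 0.47, 0.40, 0.17 and -0.26 with 54 µg NRCWE-044. With NRCWE-045, Ryr2 read 0.79, 0.85 and 0.09 at 18 µg and 0.53, -0.12, 0.23, 2.28 and 0.30 at 54 µg. Ryr2 and Pln both exceeded 2 on 2 arrays, NRCWE-044 54 µg replicate 1 and NRCWE-045 54 µg replicate 4, where Myh6 was 6.71 or more. Casq2, the calcium-binding protein of the reticulum, was well above background on 14 arrays and ranged from -0.55 to 2.70.

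The next 4 genes serve oxygen and energy supply. Mb encodes myoglobin, the oxygen store of heart and slow muscle. Mb gave log2 ratios of 3.23, 1.26, 3.47, 3.82 and 1.87 on the 5 control arrays and from -0.58 to 0.05, with a median of -0.28, on the 6 arrays of 18 µg NRCWE-044. Mb read 0.07, 2.76, 0.48, 1.17 and -0.13 with 18 µg NRCWE-043, 4.11, 3.44, -0.05, 3.38 and -0.53 with 54 µg NRCWE-043 and 4.69, 3.58, -0.29, -0.17 and 0.01 with 54 µg NRCWE-044. With NRCWE-045, Mb read 2.17, 3.99 and -0.28 at 18 µg and -0.22, -0.13, -0.25, 4.89 and -0.43 at 54 µg. Mb in all controls was above 1 and in all arrays of 18 µg NRCWE-044 at or under 0.05, and it correlated with Myh6 at 0.95. The mitochondrial creatine kinase Ckmt2 ranged from -0.33 to 5.67, the fatty acid carrier Fabp3 from -2.24 to 2.86 and the cytochrome oxidase subunit Cox6a2 from -0.57 to 3.06. A second Fabp3 probe correlated at 1.00 with the one used.

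Nppa encodes atrial natriuretic peptide, the hormone of atrial granules. On the log2 scale Nppa was at 1.03, 0.49, 2.44, 2.87 and 0.38 on the 5 control arrays and from 0.22 to 0.64, with a median of 0.48, on the 6 arrays of 18 µg NRCWE-044. Nppa read 0.53, 0.34, 0.01, 0.40 and 0.43 with 18 µg NRCWE-043, 2.93, 2.18, 0.13, 2.39 and 0.40 with 54 µg NRCWE-043 and 5.41, 2.77, 0.43, 0.14 and 0.36 with 54 µg NRCWE-044. With NRCWE-045, Nppa read 0.47, 4.32 and 0.42 at 18 µg and 0.41, 0.47, 0.35, 5.12 and 0.59 at 54 µg. Nppa stayed under 1 on 24 arrays and exceeded 1 on 10, each with Myh6 of at least 5.48, while the highest Myh6 on the other arrays was 5.53. The Nppa groups overlapped in all comparisons with the controls, and Nppa correlated with Myh6 at 0.72. The related peptide gene Nppb, more typical of strained ventricle, was above background on 15 of 34 arrays and ranged from -1.39 to 0.47, the top value belonging to NRCWE-044 54 µg replicate 1.

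The cardiac homeobox factor Nkx2-5 gave log2 ratios of -1.17, -0.80, -0.86, -0.92 and -1.20 on the 5 control arrays and from -1.24 to -0.75, with a median of -1.04, on the 6 arrays of 18 µg NRCWE-044. Nkx2-5 read -1.13, -0.53, -0.96, -1.0 and -1.15 with 18 µg NRCWE-043, -0.71, -0.79, -0.92, -1.02 and -0.81 with 54 µg NRCWE-043 and -0.34, -0.68, -0.78, -1.1 and -1.11 with 54 µg NRCWE-044. With NRCWE-045, Nkx2-5 read -1.20, -0.62 and -0.78 at 18 µg and -0.98, -0.82, -1.08, -0.24 and -1.21 at 54 µg. Its highest values were -0.24 and -0.34, on the 2 arrays with the highest cardiac scores. Its correlation with the mean of the other members was 0.66, and 0.42 without those 2 arrays. Nkx2-5 was well above background on 25 of 34 arrays. Tbx20, a T-box factor of heart development, was well above background on 6 of 34. Measured log2 ratios of Tbx20 were -0.02, -0.08, 0.12, -0.18 and -0.05 on the 5 control arrays and from -0.26 to 0.24, with a median of -0.02, on the 6 arrays of 18 µg NRCWE-044. Tbx20 read -0.02, 0.25, 0.17, -0.28 and 0.05 with 18 µg NRCWE-043, 0.25, 0.04, -0.03, -0.05 and -0.25 with 54 µg NRCWE-043 and 0.14, -0.03, 0.41, -0.07 and -0.06 with 54 µg NRCWE-044. With NRCWE-045, Tbx20 read -0.08, 0.23 and -0.10 at 18 µg and -0.04, 0.11, -0.01, 0.07 and 0.03 at 54 µg. The groups overlapped for Tbx20, and a second Tbx20 probe correlated at 0.10 with the first and at 0.82 with the cardiac score.

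Of the 34 genes 31 correlated above 0.5 with the mean of the other members and 28 above 0.8, against 2.77% and 0.28% of the 29282 units outside the list. The exceptions were Myh7 at -0.35, Myl2 at -0.12 and Tbx20 at 0.24. Arrays are not equally spaced on this axis, because NRCWE-045 54 µg replicate 4 scored 2.58 and NRCWE-044 54 µg replicate 1 scored 2.45. Without those 2 arrays 28 genes still exceeded 0.5 and 23 exceeded 0.8 over 32 arrays, and by Spearman's rho over all 34 arrays 29 and 15 did. The genes that fell below 0.5 without those 2 arrays were Nppb at 0.25, Nkx2-5 at 0.42 and Des at 0.49. Over the 561 pairs of members the median correlation was 0.844, and around group and slide means it was 0.885. The points share arrays, slides, the reference RNA and the normalization, so these values are descriptions without a test.

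**Figure D3:**
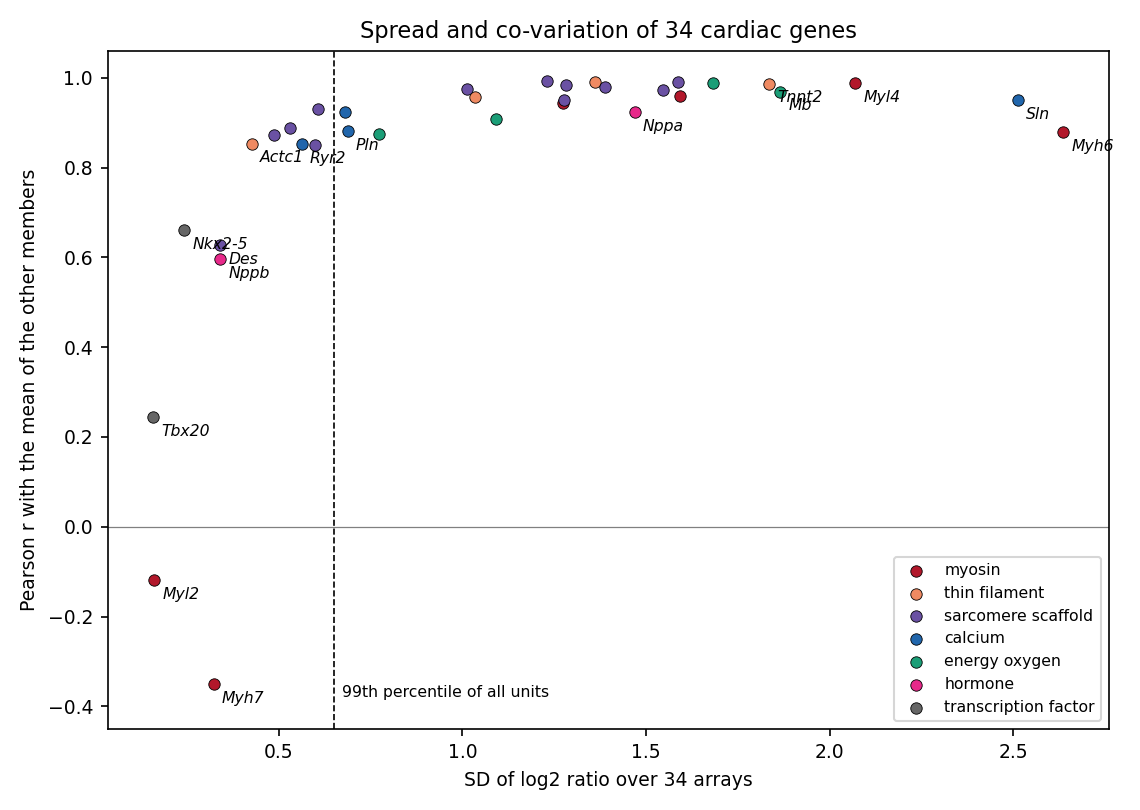
Each point is 1 cardiac gene, placed by the SD of its log2 ratio over 34 arrays (x axis) and its Pearson correlation with the mean of the other members (y axis), coloured by role. The dashed line is the 99th percentile of SD over all 29316 units; of the 34 genes 22 lie beyond it, and Myh6 and Sln lie furthest at 2.64 and 2.51.

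The stretch just upstream of the genes was searched because they varied together. RefSeq (GRCm38.p6) gave 38 windows, each the 250 bases before a start site, for 31 of the 35 genes, and 32851 such windows in all. Motifs were searched on both strands: the CArG box, bound by serum response factor; the MEF2 box; the MCAT element CATTCC; the GATA site AGATAA; the NKX2-5 element CAAGTG; and the E-box CANNTG, which the NKX2-5 element also matches. A CArG and a MEF2 box together lay in 0 of the 38 windows and in 0.0700% of all. The CArG box lay in 6 windows of 5 genes (15.8% of windows, 1.47% of all), and the MEF2 box in 4 windows (10.5%, 2.92% of all). MCAT was held by 21.1% against 12.6%, GATA by 18.4% against 9.99%, the NKX2-5 element by 15.8% against 11.6% and the E-box by 84.2% against 66.2%. A match is a description of letters and not a site. The first 3 windows below show a CArG box and the other 3 a MEF2 box, in capitals, and they are printed as 3 examples of each box, from 6 of the 10 windows of these genes that hold one. The windows not printed are 2 of Ldb3 and 1 of Myom1 with a CArG box and 1 of Ttn with a MEF2 box. Myl7 is at chr11:5898783-5899032 on the minus strand, Myl3 at chr9:110763428-110763677 on the plus strand and Actc1 at chr2:114052876-114053125 on the minus strand. Mybpc3 is at chr2:91117894-91118143 on the plus strand, Myoz2 at chr3:123034988-123035237 on the minus strand and Casq2 at chr3:102086165-102086414 on the plus strand.
Myl7: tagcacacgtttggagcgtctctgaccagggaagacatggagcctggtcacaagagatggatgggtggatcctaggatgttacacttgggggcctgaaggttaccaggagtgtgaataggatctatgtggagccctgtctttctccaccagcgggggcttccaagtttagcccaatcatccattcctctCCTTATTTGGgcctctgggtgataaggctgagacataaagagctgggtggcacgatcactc
Myl3: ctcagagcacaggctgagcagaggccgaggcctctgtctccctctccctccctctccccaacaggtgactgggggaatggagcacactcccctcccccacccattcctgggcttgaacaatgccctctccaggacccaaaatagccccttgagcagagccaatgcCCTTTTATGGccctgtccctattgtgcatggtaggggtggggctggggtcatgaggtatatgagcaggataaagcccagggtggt
Actc1: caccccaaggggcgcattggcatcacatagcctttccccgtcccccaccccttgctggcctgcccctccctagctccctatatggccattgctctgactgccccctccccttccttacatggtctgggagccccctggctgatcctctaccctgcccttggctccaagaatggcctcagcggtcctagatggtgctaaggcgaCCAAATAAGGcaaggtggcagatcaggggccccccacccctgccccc
Mybpc3: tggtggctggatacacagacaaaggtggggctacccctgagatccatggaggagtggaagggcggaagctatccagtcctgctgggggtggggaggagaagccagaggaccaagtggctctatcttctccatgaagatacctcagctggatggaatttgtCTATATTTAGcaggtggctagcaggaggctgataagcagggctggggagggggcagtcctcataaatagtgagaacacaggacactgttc
Myoz2: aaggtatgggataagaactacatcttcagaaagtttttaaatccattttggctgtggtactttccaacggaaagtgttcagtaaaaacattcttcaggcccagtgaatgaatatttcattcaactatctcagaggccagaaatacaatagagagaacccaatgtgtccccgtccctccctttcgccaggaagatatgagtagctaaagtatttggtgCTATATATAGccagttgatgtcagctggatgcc
Casq2: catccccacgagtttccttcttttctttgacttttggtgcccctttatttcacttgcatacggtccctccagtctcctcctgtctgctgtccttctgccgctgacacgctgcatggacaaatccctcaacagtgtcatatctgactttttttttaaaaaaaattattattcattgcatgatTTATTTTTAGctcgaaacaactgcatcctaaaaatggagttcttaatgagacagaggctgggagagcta
The CArG box lay 61 bases before the start in Myl7, 85 in Myl3 and 47 in Actc1, and the MEF2 box 90 in Mybpc3, 33 in Myoz2 and 69 in Casq2. The SDs over arrays of the 5 genes with a CArG box were 1.59 for Myl7, 1.27 for Myl3, 0.43 for Actc1, 0.61 for Ldb3 and 0.49 for Myom1, and those of the 4 with a MEF2 box were 1.55 for Mybpc3, 1.23 for Myoz2, 1.28 for Ttn and 0.68 for Casq2.

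The 6 comparisons with the controls asked which dose of which material moved the cardiac genes, and they share the 5 controls. At an adjusted p of at most 0.05 (limma, Benjamini-Hochberg over all units) 0 of 34 genes were called in each, where 0% of all 29316 units were called in any. The F test over all 7 groups called 0 members and 0.0443% of units. Mean levels nevertheless lay below the controls for most genes: 30, 26 and 32 of 34 with 18 µg NRCWE-043, 54 µg NRCWE-043 and 18 µg NRCWE-044, where 53.6, 53.2 and 49.6% of all units did. With 54 µg NRCWE-044, 18 µg NRCWE-045 and 54 µg NRCWE-045 the counts were 22, 26 and 24 of 34, against 49.9, 49.3 and 49.5% of units. Because the genes vary together, such counts are not 34 independent observations.

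The separation was clearest with 18 µg NRCWE-044. There 13 of 34 genes had all 6 arrays below all 5 controls, where 0.252% of all units did, and 12 had an unadjusted p under 0.05 in the lower direction, against 1.52% of units. The 13 genes were Myh6, Myl3, Myl4, Myl7, Tnnt2, Tnni3, Ttn, Ldb3, Csrp3, Myoz2, Sln, Mb and Ckmt2, of which Ckmt2 and Myoz2 were well above background on only 15 and 16 of the 34 arrays. Fitted differences on the log2 scale were -4.68 ± 1.36 (SE) for Myh6, -4.19 ± 1.32 (SE) for Sln and -3.01 ± 0.99 (SE) for Mb. In 18 µg NRCWE-044, Sln was well above background on replicate 6 only and Mb on replicate 5 only. The sizes of these 2 differences thus rest largely on signals near background in that group. Of the 13 genes, Myoz2 was well above background there on replicate 1 only and Csrp3 on replicates 3 and 6 only. Myh6 was well above background on all 6 arrays, at Cy5 intensities of 103 to 870 against 3009 to 41410 in the controls. The unadjusted limma p for Myh6 was 0.00167, and its adjusted p was 1.00. For the atrial light chains the differences were -2.67 ± 1.15 (SE) in Myl4 and -2.47 ± 0.85 (SE) in Myl7. Tnnt2 differed by -2.48 ± 1.01 (SE) and Tnni3 by -1.71 ± 0.76 (SE). Tcap and Nppa, whose groups overlapped, differed by -1.89 ± 0.68 (SE) and -1.01 ± 0.84 (SE), the latter -0.65 without control replicate 4. Actn2, Casq2 and Ckmt2 were well above background on 0 of the 6 arrays, so their ratios there, with group means of -0.05, -0.27 and 0.12 against 0.92, 0.28 and 2.17 in the controls, rest on signals near background (limma, adjusted p = 1.00 for each). In the Cy5 channel alone, scaled across arrays and not divided by the reference, their signals were at least 2.08-fold, 1.55-fold and 4.49-fold lower than in the controls, bounds that hold for that signal and not for the ratio. Small differences were fitted for Actc1, -0.47 ± 0.24 (SE), Myh7, -0.15 ± 0.19 (SE), and Myl2, -0.02 ± 0.10 (SE). The median difference was -0.94 over the 34 genes and 0.00 over all units.

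By role, the median difference of 18 µg NRCWE-044 from the controls was -2.19 for 6 thick filament genes, -1.31 for 4 thin filament genes, -1.16 for 12 scaffold genes, -0.51 for 4 calcium genes, -1.39 for 4 energy genes, -0.50 for 2 peptide genes and -0.01 for 2 transcription factors. Leaving out each of the 11 arrays in turn, an alternative chosen after seeing the data, gave 13 to 18 genes without overlap, the highest count without control replicate 2, and 31 to 34 genes with a lower mean. With slide as a block the Myh6 difference was -4.26. That block left 0 of the 34 genes called in all 15 comparisons, and at most 0.0716% of units, between 18 µg NRCWE-043 and 18 µg NRCWE-045, with 0.00341% in each of 4 others and 0% in the rest.

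In the other 5 comparisons with the controls, 0 genes had non-overlapping arrays in the lower direction, where 0.256 and 0.501% of units did with 18 and 54 µg NRCWE-043, 0.604% with 54 µg NRCWE-044, and 2.07 and 0.440% with 18 and 54 µg NRCWE-045. At an unadjusted p under 0.05, 18 µg NRCWE-043 had 1 lower gene, Tcap (limma, unadjusted p = 0.0264), against 2.70% of units, and 54 µg NRCWE-045 had 2, Myh6 and Sln, against 1.91%. The Myh6 difference was -3.47 ± 1.42 (SE) with 54 µg NRCWE-045, -2.20 ± 1.42 (SE) with 18 µg NRCWE-043 and -1.66 ± 1.42 (SE) with 54 µg NRCWE-043. It was -2.27 ± 1.42 (SE) with 54 µg NRCWE-044 and -1.48 ± 1.64 (SE) with 18 µg NRCWE-045. The last value, from 3 arrays, was 0.43 without replicate 3 and -2.66 without replicate 2. Single arrays also moved 3 of the others by over 1.5 times: the Myh6 difference was -1.43 for 18 µg NRCWE-043 without its replicate 5, -0.80 for 54 µg NRCWE-043 without its replicate 3 and -1.49 for 54 µg NRCWE-044 without its replicate 3. Each of these groups held at least 1 array with Myh6 within or above the range of the controls, so each overlapped the controls. The median differences over the 34 genes were -0.89 and -0.14 for 18 and 54 µg NRCWE-043, -0.05 for 54 µg NRCWE-044, and -0.13 and -0.25 for 18 and 54 µg NRCWE-045. At an unadjusted p under 0.05 in the lower direction, 54 µg NRCWE-043, 54 µg NRCWE-044 and 18 µg NRCWE-045 each had 0 of 34 genes, against 3.11, 2.60 and 2.88% of units. In the higher direction 0 of 34 genes had such a p in all 6 comparisons, against 1.65 and 2.52% of units with 18 and 54 µg NRCWE-043, 1.62 and 3.24% with NRCWE-044, and 5.04 and 2.02% with NRCWE-045.

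The cardiac score summarised the same groups. Controls scored from -0.26 to 1.29 with a median of 0.71, and 18 µg NRCWE-044 from -0.78 to -0.65 with a median of -0.76. On slide 6, which held no controls, all 4 arrays scored low, from -0.82 to -0.65. They were NRCWE-044 18 µg replicates 5 and 6 and replicate 5 of both NRCWE-043 doses. For these arrays slide and exposure cannot be told apart. The other groups each spanned the low end: -0.82 to 0.54 with 18 µg and -0.81 to 1.33 with 54 µg NRCWE-043, -0.80 to 2.45 with 54 µg NRCWE-044, and -0.79 to 1.47 with 18 µg and -0.81 to 2.58 with 54 µg NRCWE-045. Group accounted for 0.193 of the variance of the score and slide for 0.179. Over all units, taken singly, the median shares were 0.161 for group and 0.345 for slide. The difference from the controls was -1.29 with 18 µg NRCWE-044, and -0.85 and -0.26 with 18 and 54 µg NRCWE-043. It was -0.26 with 54 µg NRCWE-044, and -0.24 and -0.62 with 18 and 54 µg NRCWE-045. Taken within the slides that held both, the 3 NRCWE-044 18 µg arrays on slides with controls gave differences of -1.78 to -0.74 from the controls of their slide, with a mean difference of -1.16. The same within-slide means were -1.10 over 4 arrays and -0.36 over 3 for 18 and 54 µg NRCWE-043. They were -0.07 over 4 arrays for 54 µg NRCWE-044, and 0.22 over 2 and -1.37 over 4 for 18 and 54 µg NRCWE-045. Slides 4 and 6 held no controls, so their arrays are absent from these means. Among those absent are NRCWE-045 54 µg replicate 4, which scored 2.58, and NRCWE-045 18 µg replicate 3, which scored -0.79. Of the differences from all controls, 3 changed sign without a single array. They became 0.02 for 54 µg NRCWE-043 without its replicate 3 and 0.01 for 54 µg NRCWE-044 without its replicate 4. The third became 0.30, for 18 µg NRCWE-045 without its replicate 3. The difference for 54 µg NRCWE-045 was -1.29 without its replicate 4, and those for 54 µg NRCWE-043, 54 µg NRCWE-044 and 18 µg NRCWE-045 were -0.52, -0.81 and -0.83 without their replicates 1, 1 and 2. No p is given for the score.

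**Figure D4:**
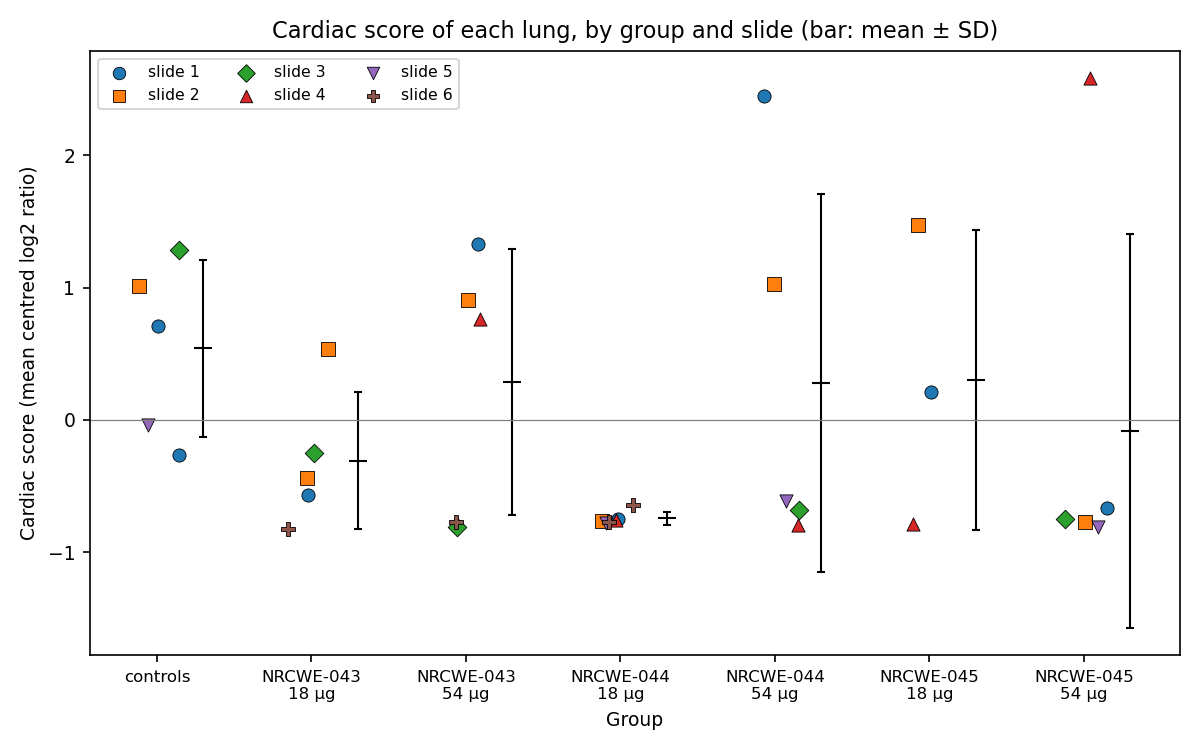
Cardiac score (mean centred log2 ratio over 34 genes) for each array, by group, with symbols for slide and bars for mean ± SD. The 6 arrays of 18 µg NRCWE-044 lie between -0.78 and -0.65, below all 5 controls, whereas single arrays of 54 µg NRCWE-044 and 54 µg NRCWE-045 reach 2.45 and 2.58.

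Between doses and between materials, 0 of 34 genes were called in all 9 comparisons. Of all units 0.0102% were called between 18 µg NRCWE-043 and 18 µg NRCWE-044, 0.43% between 18 µg NRCWE-043 and 18 µg NRCWE-045 and 0.00341% between 54 µg NRCWE-043 and 54 µg NRCWE-045, and 0% in the other 6. Going from 18 to 54 µg, the score differed by 0.59 for NRCWE-043, 1.02 for NRCWE-044 and -0.38 for NRCWE-045. The NRCWE-043 step was 0.33 without its 54 µg replicate 1, the NRCWE-044 step was 0.48 without its 54 µg replicate 1, and the NRCWE-045 step ranged from -1.05 without its 54 µg replicate 4 to 0.20 without its 18 µg replicate 2. For NRCWE-044, 32 of 34 genes were higher on average at 54 µg, where 50.3% of units were lower. Of the 34 genes 2 had an unadjusted limma p under 0.05 in the higher direction, Actc1 among them, against 2.89% of units. The NRCWE-044 scores at 54 µg were 2.45, 1.03, -0.68, -0.80 and -0.61 for replicates 1 to 5. Their median was -0.61, against -0.76 at 18 µg, so the higher averages came mainly from replicates 1 and 2. The difference of the dose steps between materials was called for 0 of 34 genes in the 3 interaction tests, in which the smallest adjusted p of a member was 1.00.

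Other lists were followed on the same arrays, to show which other tissues a section may have held. A list of 42 further heart muscle genes, 38 of them tested, correlated with the cardiac score at 0.96 as a mean score, and 23 of the 38 exceeded 0.5 singly. Its 5 brightest were Tpm1, the muscle tropomyosin, at 0.99, Pkp2 at 0.05, Synpo2l at -0.15, Cox7a1 at 0.97 and Tbx5 at 0.08. Of 20 genes of skeletal muscle 14 were tested, and their score correlated at 0.87 with the cardiac score. Spearman's rho was 0.73, and r was 0.78 without the 2 arrays farthest on the cardiac axis. The median of the single correlations of the 14 genes was only 0.27, from -0.17 for Ryr1 to 0.95 for Myl1. Not tested were Myh1, Myh2, Myh4, Mylpf, Casq1 and Myot. Singly 5 of the 14 exceeded 0.5, and the 3 brightest, Eno3, Tnni2 and Cacna1s, gave 0.84, 0.25 and 0.31. Without the members that skeletal muscle also uses, the cardiac score kept a correlation of 1.00 with the score of all members, with which it shares genes.

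The 8 fat cell genes correlated as a score at 0.79 with the cardiac score (Spearman's rho 0.59), and at 0.64 without the 2 arrays farthest on the cardiac axis. Of the 8 genes 6 exceeded 0.5 singly. The fat score ran from -0.97 to 1.09 in the controls and from -0.91 to 0.30 with 18 µg NRCWE-044. It ran from -1.12 to -0.09 and -0.55 to 0.86 with 18 and 54 µg NRCWE-043, -0.91 to 3.58 with 54 µg NRCWE-044, and -0.80 to 2.43 and -0.89 to 2.71 with 18 and 54 µg NRCWE-045. The highest fat scores, 3.58 and 2.71, belonged to the arrays with the 2 highest cardiac scores. The part of fat or other tissue in the cardiac differences was not tested. Leaving out those 2 arrays left 0 members called in all comparisons between groups.

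The 9 smooth muscle genes correlated as a score at 0.51 with the cardiac score, at 0.28 without the 2 farthest arrays and at 0.65 within groups and slides, and 3 of the 9 exceeded 0.5 singly, with Myl9 highest at 0.69. As scores 6 liver genes gave 0.28, 5 thymus genes 0.24 (0.40 within groups and slides), 6 genes of mesothelium and epicardium -0.15, 3 red cell genes -0.28 and the 8 lung genes -0.36. No gene of the other lists was called in any comparison with the controls. Alb and Apoa2, both secreted by liver, were called lower in 18 µg NRCWE-043 than in 18 µg NRCWE-045, by -2.74 ± 0.58 (SE) and -1.45 ± 0.31 (SE) with adjusted p = 0.0272 (limma), and 1 array of 18 µg NRCWE-045, replicate 2, had a liver score of 4.19.

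**Figure D5:**
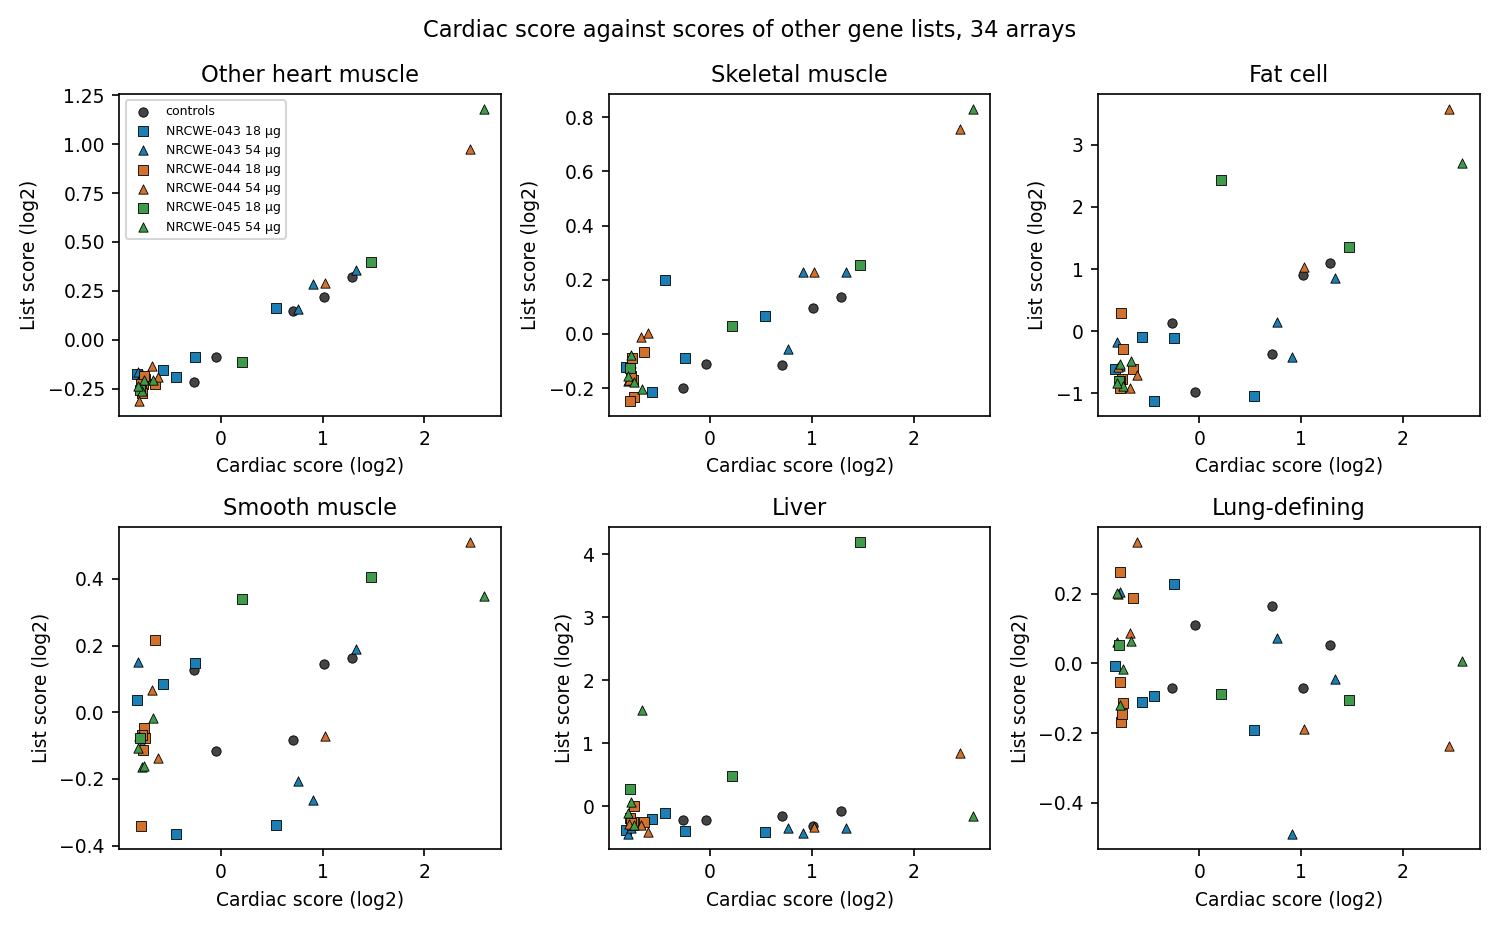
Scores of 6 other gene lists (y axes, log2, each on its own scale) against the cardiac score (x axes, log2), with 1 point per array and symbols for group. The further heart muscle genes follow the cardiac score most closely, at a correlation of 0.96, the fat cell genes follow it at 0.79, and the lung genes give -0.36.

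Over the 17125 named genes outside the list, those most like the cardiac score over the 34 arrays were Tpm1 at 0.99, the myosin-binding protein relative Mybphl at 0.99, the reticulum calcium-binding protein Hrc at 0.99, Mapk10 at 0.98, Dhrs7c at 0.98, Fndc5 at 0.97, Cox7a1 at 0.97, Pgam2 at 0.97, the calcium pump Atp2a2 at 0.96 and the light chain Myl1 at 0.95. The lowest were Hoxb7 at -0.81, Msn at -0.69, Esm1 at -0.68, Abcg1 at -0.67 and Slpi at -0.65. In all, 67 genes exceeded 0.8 (0.391%), of which 13 were on the further heart list and 3 on the skeletal list, and 24 exceeded 0.9.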

How the data were processed

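Lung RNA of 34 samples was hybridised in Cy5 against reference RNA in Cy3 on two-colour arrays without dye swap. The authors scanned the arrays and extracted spots with Agilent Feature Extraction 11.0.1.1, per the file headers, and the deposited scanner files hold the median intensity of each spot and of its local background in both channels, processed intensities, and flags of 0 or 1. The deposited series table holds log2 ratios of Cy5 over Cy3 by the authors, made by steps that the sources used here do not give; it was an alternative. It correlated at 0.994 to 0.998 with the ratios computed here.

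Median intensities were used. Background was subtracted by normexp with offset 50, ratios were normalized by loess within arrays, and control and irregular spots (0.398 to 0.631% of spots per array) had weight 0 (limma 3.58.1, R 4.3.3). Spots of a probe were averaged, and a gene was represented by its brightest probe in the lung channel. A unit had to be well above background there on 3 or more arrays, which left 29316. The 7 groups were fitted together, with eBayes and Benjamini-Hochberg adjustment over all units at 0.05, in 15 comparisons, and slide entered as an alternative. Bounds ("at least") used Cy5 signals scaled across arrays (Aquantile after loess), with the dimmest signal well above background as floor, and are open to dye bias. Given array by array, or as lowest, median and highest in the group of 6, were 15 listed genes and the member with the smallest p in each comparison with the controls; from the other lists, called genes and the brightest 5 heart and 3 skeletal genes. Members and lists were chosen with earlier results of these data known. The scripts were tested on simulated data. Precision is limited by the number of arrays. Promoter windows came from RefSeq GRCm38.p6.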

Additional observations from a re-analysis of the deposited data

Results flagged for a closer look

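Single arrays stood apart from their group by Dixon's criterion, which compares the gap between the extreme array and its nearest neighbour with the whole range of the group, in 18 of 102 sets of values examined, and chance alone marks about 1 in 20 groups. The sets share arrays and the genes vary together, so these marks are not independent. Most of them belong to NRCWE-045 54 µg replicate 4, whose cardiac score was 2.58 against -0.66, a gap of 0.958 of the range. There Myh6 was 6.80 against 1.18, a gap of 0.828 of the range. Sln was 6.85 against 0.30, a gap of 0.930 of the range, and Nppa 5.12 against 0.59, a gap of 0.951 of the range. The atrial light chains were marked with Myl7 at 5.83 against 1.90, a gap of 0.751 of the range, and Myl4 at 6.55 against 0.00, a gap of 0.966 of the range. Myoglobin (Mb) was 4.89 against -0.13, a gap of 0.943 of the range, and cardiac actin (Actc1) 3.19 against 1.90, a gap of 0.953 of the range. The troponins were marked with Tnnt2 at 4.48 against -1.09, a gap of 0.918 of the range, and Tnni3 at 5.01 against 0.65, a gap of 0.890 of the range. Pln was 2.56 against 0.02, a gap of 0.879 of the range, Ryr2 2.28 against 0.53, a gap of 0.730 of the range, and Tcap 5.03 against 2.23, a gap of 0.755 of the range.

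Array NRCWE-044 54 µg replicate 1 was marked for Pln, 2.54 against 0.36, a gap of 0.807 of the range, and for Ryr2, 2.27 against 0.47, a gap of 0.712 of the range. Both arrays also had the highest fat cell scores of the series, 3.58 and 2.71, and the part of that tissue in the cardiac values was not tested. In 18 µg NRCWE-044, replicate 6 was the highest of its group for the score, -0.65 against -0.75, a gap of 0.752 of the range, and for Myh6, 2.27 against 0.70, a gap of 0.666 of the range, and it still lay below all controls in both. Ryr2 in NRCWE-043 18 µg replicate 3 was the lowest of its group at -0.17 against 0.22, a gap of 0.807 of the range.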

How the results depend on the processing

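The alternatives were slide as a block, the deposited series table, the scanner software's processed signals, no background subtraction, median centring, the mean of all probes, other filters on dim units, other member sets for the score, within-slide differences, each array left out in turn, and, chosen after seeing the data, the 2 arrays of highest fat score left out. In all alternatives run, 0 cardiac genes were called in the 15 comparisons and in the test of any group. The count of members called among slides was 1 of 34, against 48.3% of all units. It became 2 with the series table, 0 with processed signals, 2 with median centring and 8 without the 2 arrays of highest fat score. It was 1 to 3 when single arrays were left out. The score difference of 18 µg NRCWE-044 from the controls was -2.59 for the 4 atrial genes alone, against -1.29, and the other alternatives of the 9 score differences moved them by less than the SD within groups of 0.99. Of the 19 gene differences the report prints, that of Myh7 with 18 µg NRCWE-044 turned to 0.033 with slide as a block, and the other 18 kept their sign in these alternatives. With single arrays left out, Myl2 with 18 µg NRCWE-044 ranged from -0.050 to 0.0062 and Myh6 with 18 µg NRCWE-045 from -2.66 to 0.43, and the other 17 kept their sign. Among 77 gene differences computed and not printed, 22 changed sign in at least 1 alternative and 38 with an array left out. Replicates of a group were numbered in accession order. No paired analysis was possible because these numbers tie no sample of one group to a sample of another. Myl2, Tbx20, Pln, Nppb, Casq2, Ckmt2 and Myoz2 were well above background on fewer than 17 of 34 arrays, and small differences in them could not be detected.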
